A study of Mus musculus with 6 samples.

Results

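miR-340 is a microRNA hairpin whose stem is cut into 2 mature strands, miR-340-5p from its left arm and miR-340-3p from its right arm. Both arms were followed by name in 6 small RNA libraries of mouse oligodendrocyte cultures, as 2 of the 1906 mature miRNAs counted, and both had reads in all 6 libraries. The hairpin was chosen by measured values, the levels of its arms and their log2 ratio of 5p over 3p in vesicles and cells, so these are given as a description without a test.

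The libraries called EVs, 3 in number, came from the pellet of extracellular vesicles released by primary oligodendrocytes, the cells that myelinate axons in the central nervous system, and the 3 called Cells came from whole oligodendrocytes. All cultures were of the strain C57BL/6N, were started from mice at embryonic day 14 and grew in the medium Sato with horse serum added to 1%. After a wash, vesicles gathered for 24 h in Sato without serum but with the neural culture supplement B27. The age of the cultures was 5 to 6 days in vitro for EVs and 6 days for Cells, and the labels give no other treatment or genotype. The last spin was at 100000 g for 2 h, and such a pellet can also hold protein particles and RNA carried by the medium. Whether replicates were separate cultures is not stated, so the spread between them may be technical.

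After Dicer cuts a hairpin, one strand of the short duplex is kept by an Argonaute protein as the guide and the other is usually released and broken down. The strand with the less firmly paired 5′ end and a 5′ uridine tends to be kept. The guide then finds its targets through its seed, bases 2 to 8, so the arms of a hairpin act on different transcripts. miR-340-5p is the arm mostly described as the active one. miR-340 lies inside Rnf130, a gene for a RING-finger protein that acts as a ubiquitin ligase, and is transcribed in the same direction.

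The hairpin and its arms are shown because the whole result is a change in the proportion of these 2 strands. They are RefSeq sequences of build GRCm38.p6, matched by miRNA name. The hairpin, 98 bases on the plus strand at chr11:50069702-50069799, is written first with its 2 mature arms in capitals. The arms follow with their seeds in capitals.

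Mir340 hairpin: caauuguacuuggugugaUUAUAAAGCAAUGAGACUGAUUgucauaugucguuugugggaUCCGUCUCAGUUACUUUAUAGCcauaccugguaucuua
miR-340-5p: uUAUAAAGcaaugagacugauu
miR-340-3p: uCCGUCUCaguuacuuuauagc

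The 5p arm is at chr11:50069720-50069741 and the 3p arm at chr11:50069762-50069783. In the GENCODE M21 annotation of GRCm38, 2 of 3 transcripts of Rnf130 (chr11:50025346-50104758) span the hairpin, in intron 2 of each, and 0 have an exon that overlaps it. These coordinates belong to GRCm38 and not to mm9, the build the submitters used. Both arms are 22 bases long and begin with U. The seed of the 5p arm, UAUAAAG, and that of the 3p arm, CCGUCUC, are different, and 0 other mature miRNAs among 1679 in the RefSeq table carry either of them.

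The arms differ in composition. miR-340-5p has a GC content of 27.3% and miR-340-3p of 40.9%, against a median of 52.2% over 1622 counted miRNAs with a sequence. Only 0.432% of those miRNAs have a lower GC content than the 5p arm, and 14.4% a lower one than the 3p arm. Of the first 8 bases, 7 are A or U in the 5p arm and 3 in the 3p arm. In the lowest-energy fold of the hairpin (RNAfold, -33.9 kcal/mol), 16 base pairs join the arms, 10 of them A-U, 5 G-C and 1 G-U. The first 4 bases of the 5p arm are all paired, with 0 G-C pairs. Of the first 4 bases of the 3p arm, 3 are paired, 2 of them in G-C pairs.

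The sequences of both arms stand far from those of other miRNAs, which bears on whether reads could be shared. With shifts of up to 5 bases and no gaps, the nearest other mature sequence to miR-340-5p matched 13 of its 22 bases (miR-7043-5p), and the nearest to miR-340-3p matched 14 (miR-3569-3p). The longest run shared with another miRNA was 8 bases for the 5p arm and 9 for the 3p arm. Short motifs described as binding sites of proteins that load RNA into vesicles were also searched on the mature strand. GGAG, a motif of hnRNPA2B1, is in 14.2% of the 1622 miRNAs and GGCU, a motif of SYNCRIP, in 13.1%. These letters are in neither arm of miR-340.

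Total counts were 313766 to 689475 in EVs and 126910 to 202358 in Cells. Levels are in CPM, counts per 1000000 counted miRNA reads. A single read was worth 1.45 to 3.19 CPM in EVs but 4.94 to 7.88 in Cells. Markers fixed for oligodendrocytes (miR-219a, miR-338 and miR-138) were read in each group, summing to 33557 to 36111 CPM in EVs and to 33961 to 43435 in Cells. Within that sum the markers went both ways: mean levels of miR-219a-5p (8310 against 3473 CPM) and miR-138-5p (10474 against 4582) were higher in EVs than in Cells, and those of miR-219a-2-3p (12816 against 23529), miR-338-5p (1359 against 4037) and miR-338-3p (1807 against 2298) were lower. Markers of 6 other cell types were read too, and 0 of the 28 listed markers were without any read over the cell libraries. Some were near the floor: in Cells replicates 1, 2 and 3, miR-144-3p had 0, 1 and 0 reads and miR-802-5p 1, 1 and 0. The sum of 3 red blood cell markers was 3944 to 7835 CPM in EVs against 212 to 256 in Cells, that of 4 liver markers 6199 to 11222 against 563 to 701, and that of 4 neuronal markers 22548 to 30531 against 7120 to 14191. Among the liver markers miR-194-5p went the other way, at a mean of 186 CPM in EVs against 209 in Cells. Endothelial and mesenchymal markers (4) summed to 2537 to 4908 CPM in EVs and 394 to 1076 in Cells. Myeloid markers (5) summed to 612 to 1936 in EVs and 1592 to 4566 in Cells, and striated muscle markers (3) to 159 to 545 and 615 to 1184. These sums moved with the same contrast as the arms of miR-340, and their part in it was not tested. In such bulk samples a smaller number of cells, or vesicles, of one type cannot be told apart from less of a miRNA in each.

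The 5p arm, the usual guide, was abundant in both kinds of library and differed little between them. EVs held 3336, 2276 and 5735 reads of miR-340-5p in replicates 1, 2 and 3, which were 7740, 7254 and 8318 CPM. Cells held 881, 776 and 1289 reads, which were 5641, 6115 and 6370 CPM. The lowest EV library was above the highest cell library in CPM, and each group was tight around its mean, 7771 ± 533 CPM in EVs and 6042 ± 370 CPM in Cells (mean ± SD, n = 3 each). The arm held 0.777% ± 0.0533 of reads in EVs and 0.604% ± 0.037 in Cells. Its rank among all miRNAs was 29 to 32 in EVs and 31 to 33 in Cells.

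The direction of this small difference in miR-340-5p was set by the scaling. On CPM, the mean was 1.29 times as high in EVs. With scaling by trimmed mean of M-values (TMM), which centres the bulk of miRNAs, the log2 fold change of EVs over cells was -0.10 (SE 0.16, edgeR), and with library size only it was 0.36 (SE 0.17). The median log2 fold change of all 336 miRNAs tested moved from 0.06 to 0.54 between these scalings. Relative to that median, miR-340-5p stood at -0.16 with TMM and -0.17 with library size only. The arm thus stayed near the middle of the tested miRNAs, at place 142 from the lowest of 336.

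In the order of mean levels the 5p arm stood among miRNAs from which it could not be separated. In EVs it was number 31, below miR-16-5p (8005 ± 1235 CPM) and miR-20a-5p (7902 ± 688) and above miR-106b-5p (7624 ± 445) and miR-148a-3p (7493 ± 1381). In Cells it was again number 31, below let-7d-5p (6486 ± 395 CPM) and miR-30c-5p (6464 ± 3464) and above miR-27b-3p (6036 ± 850) and miR-19b-3p (5813 ± 2150). The range of each of these neighbours over 3 libraries overlapped that of miR-340-5p.

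The 3p arm, the usual passenger, had the larger difference. EVs held 120, 106 and 225 reads of miR-340-3p, which were 278, 338 and 326 CPM. Cells held 255, 142 and 278 reads, which were 1633, 1119 and 1374 CPM. The highest EV library stood well below the lowest cell library, although the EV libraries were the more deeply read. Group means were 314 ± 31.5 CPM in EVs and 1375 ± 257 CPM in Cells (n = 3 each), so the mean in Cells was 4.38 times that in EVs. Among all miRNAs the arm ranked 171 to 194 in EVs and 70 to 84 in Cells.

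The drop of miR-340-3p kept its direction under each scaling. Its log2 fold change of EVs over cells was -2.61 (SE 0.26) with TMM and -2.13 (SE 0.24) with library size only, and it stood at -2.67 relative to the median miRNA in both. It was number 7 from the lowest of the 336 tested miRNAs. When only the 88 tested miRNAs above 1000 CPM in Cells were counted, 3 were as low or lower, itself included. This cut used the level in Cells, where the arm is higher, and so favours miRNAs that are lower in EVs. The count therefore adds no support to the drop. The CPM of the groups did not overlap for either of the 2 arms, as was the case for 67.6% of the tested miRNAs. EVs were the higher group without overlap for 47.3% of them, as for miR-340-5p, and the lower group for 20.2%, as for miR-340-3p. edgeR called 57.4% of the tested miRNAs at a BH-adjusted p below 0.05, so differences between the groups were common.

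**Figure D1:**
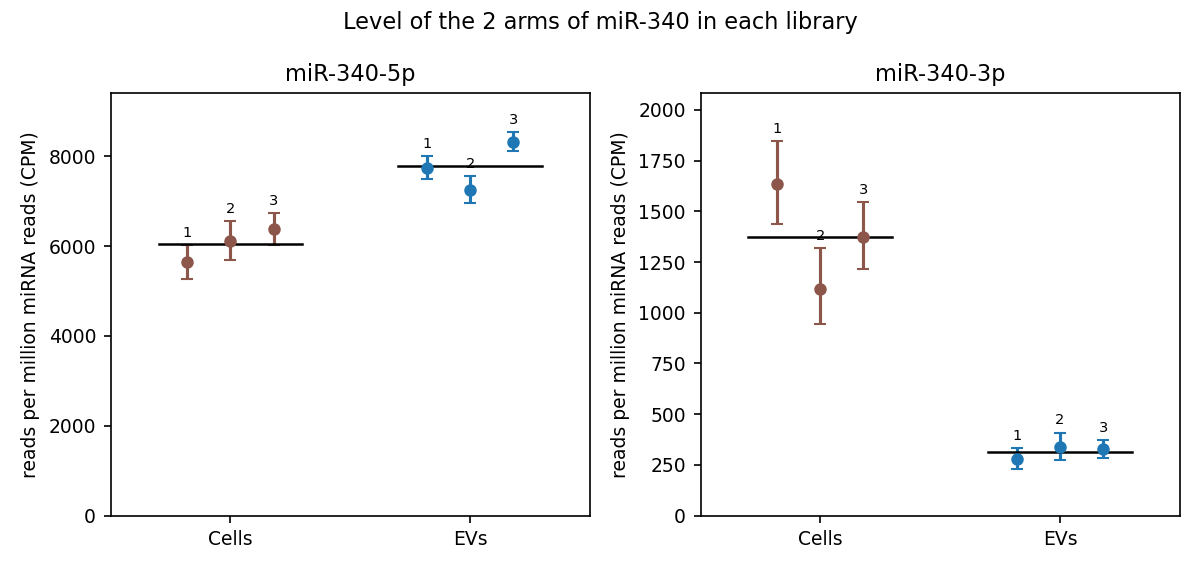
CPM of miR-340-5p (left) and miR-340-3p (right), on separate axes that start at 0. Points are single libraries, labelled by replicate number, bars are 95% exact binomial intervals of counting error and horizontal lines are group means; the 5p arm lies at 5641 to 6370 CPM in Cells and 7254 to 8318 in EVs, the 3p arm at 1119 to 1633 and 278 to 338.

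The levels of miR-340-3p were shared with other miRNAs in each group. In EVs its neighbours in mean level were miR-17-3p (316 ± 75.3 CPM) and miR-335-3p (316 ± 31.4) above and miR-130b-3p (304 ± 101) and miR-351-5p (296 ± 46.6) below. In Cells they were miR-2137 (1402 ± 389 CPM) and miR-30a-3p (1383 ± 174) above and miR-1839-5p (1366 ± 28.4) and miR-30b-5p (1310 ± 594) below. The range of each overlapped that of miR-340-3p.

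The ratio of the arms compares 2 strands of one hairpin inside 1 library and needs no scaling between libraries. EVs held 27.8, 21.5 and 25.5 reads of miR-340-5p for each read of miR-340-3p in replicates 1, 2 and 3. Cells held 3.45, 5.46 and 4.64. The lowest ratio in EVs was thus far above the highest in Cells. On the log2 scale, with 0.5 added to each count, the ratios were 4.79, 4.42 and 4.67 in EVs (mean 4.63 ± 0.19) and 1.79, 2.45 and 2.21 in Cells (mean 2.15 ± 0.33, n = 3 each). The difference of EVs minus Cells was 2.48 (SE 0.41, limma), a 5.57-fold change in the ratio. Reads pooled over the libraries of a group gave 2.53.

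Expressed as a share, miR-340-3p made up 3.47%, 4.45% and 3.78% of the reads of its hairpin in EVs. In Cells it made up 22.4%, 15.5% and 17.7%. Exact binomial 95% intervals ran from 2.89 to 5.36% over the EV libraries and from 13.2 to 24.99% over the cell libraries, and they cover counting error only, since PCR copies of a molecule may be counted more than once. The intervals of the 3 EV libraries overlapped each other. In Cells the interval of replicate 1 (20.1 to 24.99%) did not overlap those of replicate 2 (13.2 to 17.97%) or replicate 3 (15.9 to 19.7%). The cell libraries therefore differed among themselves by more than counting error, but by much less than they differed from EVs.

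The 3p arm carried the larger change under each scaling. Reads of both arms together were 8018, 7592 and 8644 CPM in EVs and 7273, 7233 and 7744 CPM in Cells, so the ranges of the groups overlapped. Their means were 8085 ± 529 and 7417 ± 284 CPM, and the log2 fold change of the sum was -0.34 (SE 0.16) with TMM and 0.13 (SE 0.16) with library size only. The direction for the hairpin as a whole was again set by the scaling, and both values were small beside that of miR-340-3p.

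Replicates with the same number deviated together only weakly across miRNAs (correlations 0.115, 0.106 and 0.256), and the labels state no pairing. The numbers are taken as pairs here, while the main fits used group only. With pairs as a block, the SE of the difference in log2 ratio was 0.54 in place of 0.41. In log2 units the ratio was higher in EVs by 3.00 in pair 1, by 1.97 in pair 2 and by 2.46 in pair 3. The changes in CPM within pairs were -2.55, -1.73 and -2.07 for miR-340-3p and 0.46, 0.25 and 0.38 for miR-340-5p. All 3 pairs moved in the same direction in each measure, as any pairing must where the groups do not overlap. For miR-340-5p these are changes in plain CPM, and its direction depended on the scaling. Pair 1 had the largest change in both arms, and it holds the cell library with the lowest ratio.

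The ratio was also read at equal depth, since the EV libraries were the deeper ones. With each library thinned to 126910 reads, EVs held 947, 901 and 1052 reads of miR-340-5p against 40, 44 and 41 of miR-340-3p, at ratios of 23.7, 20.5 and 25.7. Cells then held 3.45, 5.46 and 4.03 reads of the 5p arm per read of the 3p arm, and the log2 difference was 2.44 (SE 0.38).

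**Figure D2:**
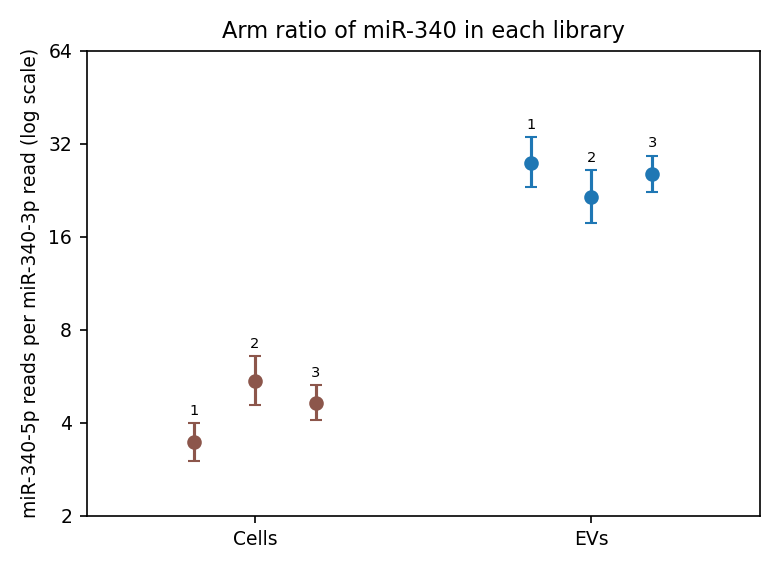
Reads of miR-340-5p per read of miR-340-3p in each library, on a log scale. Points are libraries labelled by replicate number and bars are 95% exact binomial intervals of counting error; Cells lie between 3.45 and 5.46 and EVs between 21.5 and 27.8, with no overlap.

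Other hairpins give the setting for this ratio. A total of 187 hairpins had at least 10 reads over both arms in every library, with copies of the same number and letter added together. Their median difference in log2 ratio of EVs minus Cells was -0.46, and 74 moved towards 5p and 113 towards 3p. limma called 67 of them (35.8%, BH-adjusted p below 0.05), 24 towards 5p (12.8%) and 43 towards 3p (23.0%). The number was 36 without EVs replicate 1, and 32 of 176 (18.2%), with 11 towards 5p, after thinning to equal depth. The log2 ratios of the groups did not overlap for 46.0% of hairpins, towards 5p in 16.0%, as for miR-340, and towards 3p in 29.9%. Calls were made in both directions, and their share depended on depth. Over the 187 hairpins miR-340 moved against the more frequent direction, but among those with the best read arms, described below, slightly more moved its way.

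Within that set, miR-340 had place 5 for movement towards 5p and place 20 by size in either direction. The hairpins ahead of it towards 5p rested on few reads of one arm. miR-346, at 2.85 and named after its values were seen, had 0 reads of its 3p arm in every library. Its value thus rests on its 5p reads (102 to 222 in EVs, 10 to 40 in Cells) and the 0.5 added to each count. The 3 largest movements towards 5p were those of miR-32 (3.88), with 1 to 2 reads of its 5p arm in a cell library, miR-486a (3.53), with at most 7 reads of its 3p arm, and miR-30b (3.30), also with at most 7. The 3 largest towards 3p, miR-381 (-3.63), miR-500 (-3.51) and miR-137 (-3.41), had 0 to 4 reads of their 5p arms in any library. In 66 of the 187 hairpins (35.3%) the weaker arm had 0 reads in at least 1 library.

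miR-340 was among the hairpins with the best read weaker arm, at a mean of 188 reads a library, place 14 of 187. In a set chosen after the values were seen, 29 hairpins had a mean of at least 100 reads of the weaker arm over the 6 libraries. Of these, 16 moved towards 5p and 13 towards 3p, with a median of 0.17. miR-340 (2.48) was the furthest towards 5p, and let-7a (-3.24, SE 0.47) and let-7d (-2.76, SE 0.55) moved further in the other direction. Hairpins of the oligodendrocyte markers went both ways, with miR-219a at 2.08 (SE 0.44), miR-138 at 1.07 (SE 0.39) and miR-338 at -1.22 (SE 0.42). The neural miR-9, read most on both arms, was at -1.35 (SE 0.43).

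**Figure D3:**
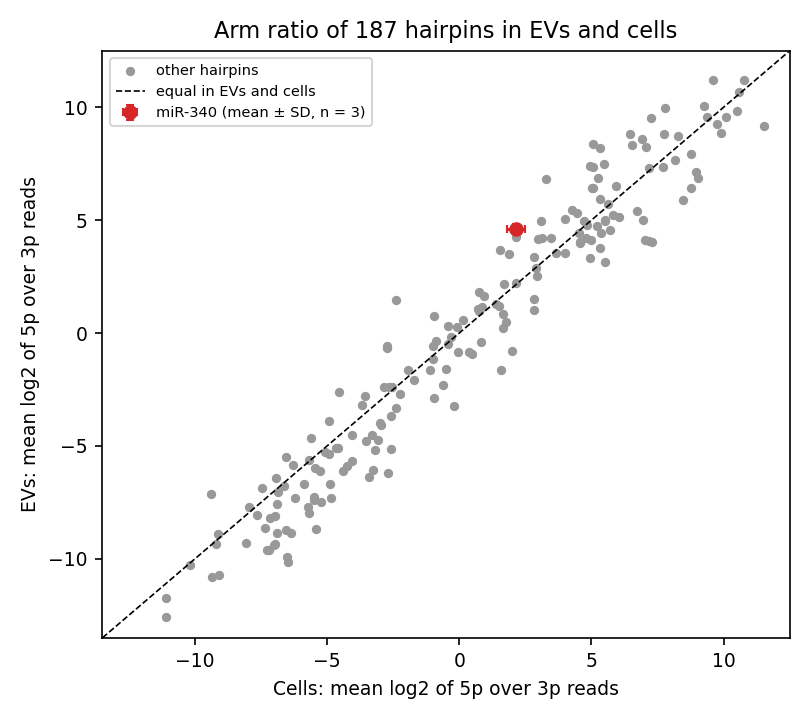
Mean log2 of 5p over 3p reads in Cells (x axis) and EVs (y axis) for 187 hairpins. The dashed line marks equal ratios; miR-340 (red, mean ± SD of 3 libraries) is at 2.15 in Cells and 4.63 in EVs, above the line, where 74 hairpins lie, while 113 lie below it.

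**Figure D4:**
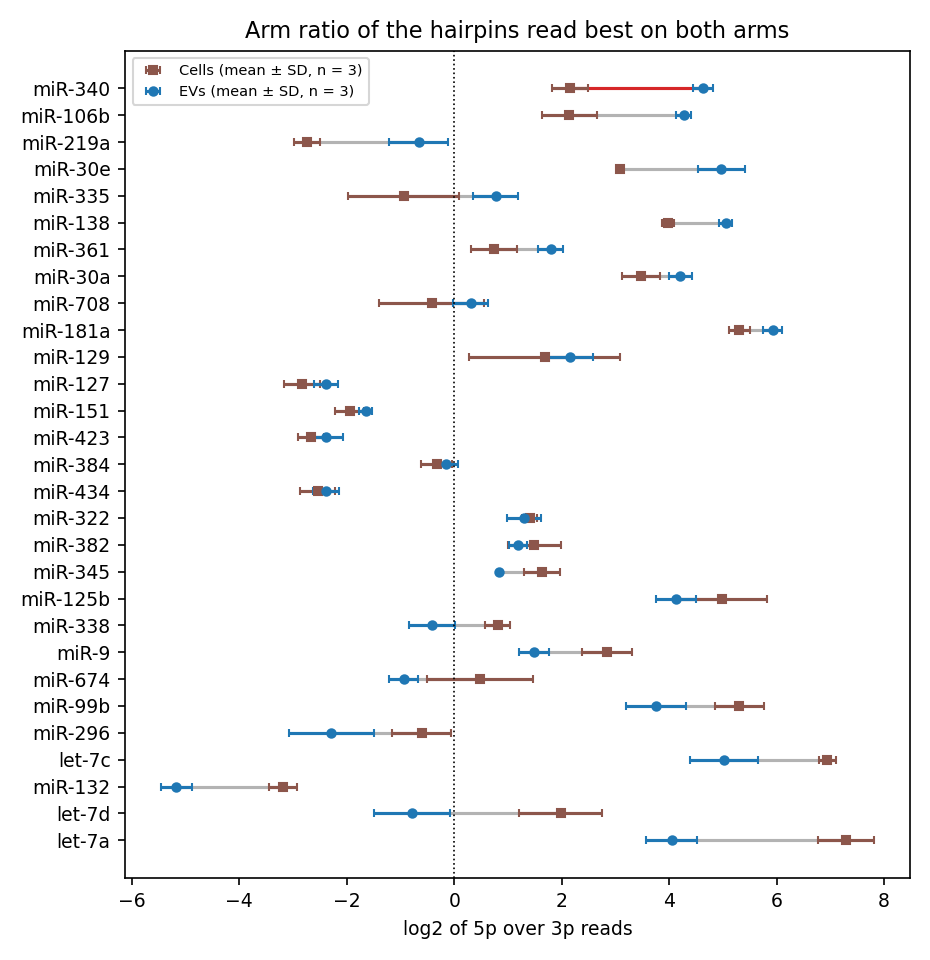
Log2 of 5p over 3p reads in Cells (squares) and EVs (circles), mean ± SD of 3 libraries, for the 29 hairpins with a mean of at least 100 reads of the weaker arm, ordered by the difference. miR-340 is at the top with a difference of 2.48 and let-7a at the bottom with -3.24.

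The hairpin most like miR-340 was miR-106b, a member of an intronic cluster in the cell cycle gene Mcm7. Over the 6 libraries its log2 ratio differed from that of miR-340 by a root mean square of 0.30, where the median hairpin of the 186 compared differed by 5.11. It stood at 4.27 in EVs (4.11 to 4.40) and 2.14 in Cells (1.65 to 2.65), a difference of 2.12 (SE 0.43). Its weaker 3p arm had 115 to 322 reads in EVs and 55 to 118 in Cells. miR-18a (root mean square 0.69, with 4 to 8 reads of its 3p arm in Cells) and miR-30e (0.78) came next.

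The single arms of miR-106b behaved otherwise. miR-106b-5p stood at 7624 ± 445 CPM in EVs and 2274 ± 667 in Cells. Its log2 fold change was 1.30 (SE 0.21, edgeR). miR-106b-3p stood at 397 ± 60.9 and 499 ± 76.6 CPM, with -0.80 (SE 0.21). The larger change in miR-106b was thus a rise of its 5p arm, where in miR-340 it was the low level of the 3p arm.

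The arms of miR-106b are printed because its ratio was the nearest to that of miR-340 in both groups.

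miR-106b-5p: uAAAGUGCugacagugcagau
miR-106b-3p: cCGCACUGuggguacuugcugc

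Capitals again mark the seeds, and the 4 seeds of the 2 hairpins differ from one another. Other miRNAs that carry the seeds of miR-106b were not searched for. The 3p arm of miR-106b begins with C and has a GC content of 63.6%, against U and 40.9% in miR-340-3p. Its 5p arm begins with U, as miR-340-5p does, and has a GC content of 42.9%. With each hairpin set to its own mean, so that only the pattern over libraries counted, miR-106b (0.24), miR-30c (0.33) and miR-103 (0.42) were the most alike, against a median of 1.57. miR-30c moved by 2.45 (SE 0.51) and miR-103 by 2.25 (SE 0.51), and both rested on few reads of the weaker arm, 22 to 54 for miR-30c-3p and 0 to 12 for miR-103-5p.

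For single arms, likeness was taken as the root mean square difference of log2(CPM + 2) over the 6 libraries, each miRNA minus its own mean, among 335 others. Closest to miR-340-5p were miR-92a-3p (0.06), miR-342-5p (0.07) and miR-760-3p (0.12), against a median of 0.58. miR-92a-3p ran from 16245 to 16552 CPM in EVs and from 11096 to 13190 in Cells, at more than the level of miR-340-5p but with the same small difference. Closest to miR-340-3p were let-7a-5p (0.23), let-7f-5p (0.26) and miR-130b-5p (0.27). let-7a-5p, a guide strand, ran from 5769 to 7465 CPM in EVs and from 21007 to 24739 in Cells, and its log2 fold change was -2.27. miR-130b-5p, usually described as a passenger, ran from 74.2 to 112 CPM and from 252 to 384, with -2.15. In Cells, however, it was the better read arm, at a mean of 301 CPM against 96.3 for miR-130b-3p. In EVs it was the weaker arm, at 95.3 against 304. These miRNAs were picked for their likeness over the same 6 libraries, so their sharing the pattern of miR-340-3p follows from the choice.

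Hairpins often read from both arms were listed from general knowledge, without miR-340. Of 31 listed, 26 were tested for arm proportion, 5 were called towards 5p (19.2%) and 6 towards 3p (23.1%), and the other 15 were not called. Over all tested hairpins the shares were 12.8% and 23.0%, so the share towards 3p was near the background. Their median movement was 0.34, beside -0.46 for all tested hairpins, and the median of its size was 1.15 beside 1.07. A movement at least as large as that of miR-340 was seen in 2 of the 26 and in 20 of all 187, miR-340 included. Of the list's 54 tested arms, edgeR called 13 as higher in EVs and 18 as lower, with a median log2 fold change of -0.16, beside 96 and 97 of 336 and a median of 0.06. With library size only the list had 21 higher and 12 lower and a median of 0.31, beside 148 and 60 of 336 and a median of 0.54. Its 3 most abundant arms were miR-9-5p (-1.28), miR-9-3p (0.04) and miR-30a-5p (0.53).

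miRNAs from introns of protein-coding genes, where miR-340 also lies, were listed in the same way. They were matched by number and letter with any copy and arm, and some also have copies outside such genes. Of 38 listed hairpins, 35 were tested for arm proportion, 4 were called towards 5p (11.4%) and 8 towards 3p (22.9%), near the 12.8% and 23.0% of all tested hairpins, and the median movement was -0.50 beside -0.46. A movement at least as large as that of miR-340 was seen in 3 of the 35 (8.57%), beside 10.7% of all 187. Of their 57 tested miRNAs, edgeR called 10 as higher in EVs (17.5%) and 20 as lower (35.1%), beside 28.6% and 28.9% of all 336, with a median log2 fold change of -0.14. With library size only 23 of the 57 were higher and 12 lower, with a median of 0.34, beside 148 and 60 of 336 and a median of 0.54. The most abundant were miR-128-3p (0.84), miR-26a-5p (-1.23) and miR-30e-5p (0.93). Calls went in both directions in each list, as they did over all tested miRNAs.

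**Figure D5:**
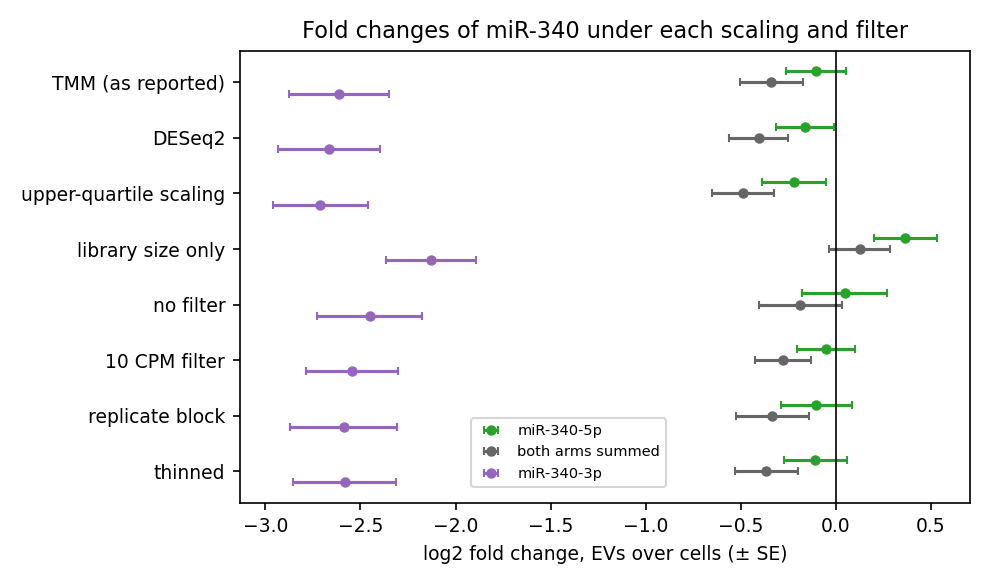
Log2 fold change of EVs over cells (± SE) of miR-340-5p, miR-340-3p and both arms summed, under the scaling used here (TMM) and 7 other settings. miR-340-3p lies between -2.71 and -2.13 throughout, miR-340-5p between -0.22 and 0.36 and the sum between -0.49 and 0.13. miR-340-5p and the sum change sign with library size only (0.36 and 0.13), and miR-340-5p also without the filter on low counts (0.05).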

How the data were processed

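Small RNA of 15 to 200 nt was sequenced from 3 EV and 3 cell samples. The deposited values are counts, 1 table per sample with a whole number for each of 1906 mature miRNAs. The tools named in the submitters' processing notes are featureCounts 1.4.6-p4 and Bowtie 0.12.8, with cutadapt 1.7.1 and bcl2fastq 1.8.4, on NCBIM37 (mm9). Their settings, the treatment of reads with several matches, the miRNA release and any use of the 4 random adapter bases against PCR copies were not given in the sources used here.

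CPM was computed from total counts. Fold changes came from edgeR 4.0.16 (glmQLFit, glmQLFTest, R 4.3.3, two-sided) with TMM, filterByExpr (minimum count 10) and group as the only term, over 336 miRNAs. SEs are the coefficient over the root of F. Arm ratios, log2((5p + 0.5)/(3p + 0.5)), were fitted with limma 3.58.1, for hairpins with at least 10 reads over both arms in every library. Both used Benjamini-Hochberg (BH) adjustment, called below 0.05, and were tested on simulated data. Intervals are exact binomial (Clopper-Pearson, 95%). Where a count is 0, up to 3 reads are allowed for, or 4.35 to 9.56 CPM for EVs but 14.8 to 23.6 for Cells. The fold came from RNAfold 2.7.2. Of the 1906 names, 1622 matched the RefSeq table (GRCm38.p6).

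The labels gave groups and replicate numbers. Deviations of same-numbered libraries from their group means correlated weakly, at 0.115, 0.106 and 0.256 over 336 miRNAs. Those of other pairs correlated at -0.148 to 0.021. The numbers were taken as pairs only for the differences within pairs and for the replicate block. No 2 libraries of a group differed by as little as sampling noise (chi-square 7.73 to 37.5 times its degrees of freedom). The members and lists were chosen with earlier results of these data known. Named miRNAs were both arms, the 3 most alike arms and hairpins by root mean square difference, the 3 largest arm movements in each direction, the top 3 of each list by level and the 2 neighbours on each side in level. Alternatives were another scaling, filter, pseudocount or read minimum, DESeq2 1.42.0, thinning, pooled reads, single-copy hairpins, the replicate block and leaving out each library.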

Additional observations from a re-analysis of the deposited data

How the results depend on the processing

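The log2 difference of the arm ratio of miR-340 was 2.48 and lay between 2.30 and 2.63 over all 12 alternatives, each within 1 SD of the replicates (0.27). miR-340-3p stayed lower in EVs in all 13 alternatives, at -2.81 to -2.13, and the value with library size only (-2.13) moved by more than 1 SD (0.22). miR-340-5p, at -0.10, became positive with library size only (0.36) and without a filter (0.046), and was -0.22 with upper-quartile scaling. The sum of both arms, at -0.34, became 0.13 with library size only, -0.19 without a filter and -0.49 with upper-quartile scaling. When a library was left out, miR-340-5p ranged from -0.20 to -0.091, the sum from -0.46 to -0.29, miR-340-3p from -2.81 to -2.39 and the ratio from 2.30 to 2.63. miR-340-5p and the sum moved by more than 1 SD without EVs replicate 2 (-0.20 and -0.46). With the replicate block, the ratio was 2.48 (SE 0.54), the arms -0.10 and -2.59 and the sum -0.34, while 187 miRNAs and 69 hairpins were called in place of 193 and 67. The number of miRNAs called ranged from 153 to 235. With library size only, 71.2% of calls were higher in EVs in place of 49.7%. Hairpins called fell to 32 after thinning, where 176 were tested, and ranged from 36 (without EVs replicate 1) to 60 when a library was left out. Depth limits the ratio through miR-340-3p, with 106 to 278 reads a library.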
